A study of Mus musculus with 14 samples.

Results

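The genes described here are 10 members of the BCL2 family, chosen by name from the 24091 genes of the counts table: the anti-apoptotic Bcl2, Bcl2l1 and Mcl1, the effectors Bax and Bak1, and the BH3-only genes Bcl2l11, Bbc3, Pmaip1, Bid and Bad. They were measured by bulk RNA-seq in T cells sorted from the spleen of mice with chronic myeloid leukemia (CML), 8 in a model of chronic phase (CP) and 6 in a model of blast crisis (BC). Every mouse, CP CML or BC CML, was SCLtTA/BCR-ABL transgenic, with the BCR-ABL oncogene switched on for 3 weeks by tetracycline withdrawal. The CP CML mice were Mir142+/+BCR-ABL, and the BC CML mice were Mir142-/-BCR-ABL, lacking the microRNA gene Mir142 in all cells rather than in T cells alone. All were young C57Bl/6j mice that had received no treatment, and mice without BCR-ABL were not part of the comparison. Each library came from 200000 sorted cells of 1 mouse. The question addressed by the comparison is how T cells differ between the chronic phase and the blast crisis model.

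The BCL2 family sets the threshold for the mitochondrial pathway of cell death. Its effectors BAX and BAK1 form pores in the outer mitochondrial membrane, which releases cytochrome c and leads to caspase activation, while the anti-apoptotic proteins BCL2, BCL-XL (from Bcl2l1) and MCL1 bind and restrain both the effectors and the BH3-only proteins. BH3-only proteins carry signals such as cytokine loss or DNA damage to the other members. In T cells, cytokines that use the common gamma chain help maintain BCL2, BCL-XL is induced after activation, and BIM (from Bcl2l11) is a main trigger of death when survival signals end.

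Sequencing depth was alike in both groups, with 15703702 to 19914531 counted reads per mouse in CP CML (median 17186326) and 16145537 to 19399720 in BC CML (median 18746069.5). Mir142, the deleted gene, had between 302 and 650 reads in each CP CML mouse and 0 reads in all 6 BC CML mice, so every library matched its genotype. Counts are given as normalized counts, in CPM (reads of a gene scaled to a common library size, after TMM correction for library composition), and differences were tested with edgeR's quasi-likelihood test, adjusted over the 12248 genes with enough reads (a gene is called at an adjusted p below 0.05). The sample names of each genotype share a prefix of their own, whose meaning the labels do not give, so whatever it marks and the genotype cannot be told apart. A lower value in bulk RNA can come from fewer cells of a type or from less RNA per cell, and these cannot be told apart here. All values are of mRNA summed over the isoforms of a gene, so the long and short forms of Bcl2l1, for example, were not separated.

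All 10 members had enough reads to be tested, from 98 reads for Bad in its lowest mouse to 20695 for Bcl2 in its highest. In BC CML T cells Bcl2l1 was 2.12-fold higher, Bbc3 1.68-fold and Bak1 1.32-fold higher, and Bax fell to 0.825 of its CP CML level, while the other 6 members did not pass the test. Thus 4 of 10 members were called (40%), beside 65.2% of all genes tested. The 3 higher members stand beside 32.6% of all genes called higher, and the 1 lower member beside 32.7% called lower. The groups did not overlap for 3 members, 2 of them higher in BC CML (Bcl2l1 and Bak1) and 1 lower (Bax), where 36.9% of all genes did not overlap, 19.3% being higher and 17.6% lower in BC CML. The median log2 fold change was 0.17 over the members and -0.01 over all genes tested, and the median size of the change, regardless of sign, was 0.25 and 0.28.

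**Figure D1:**
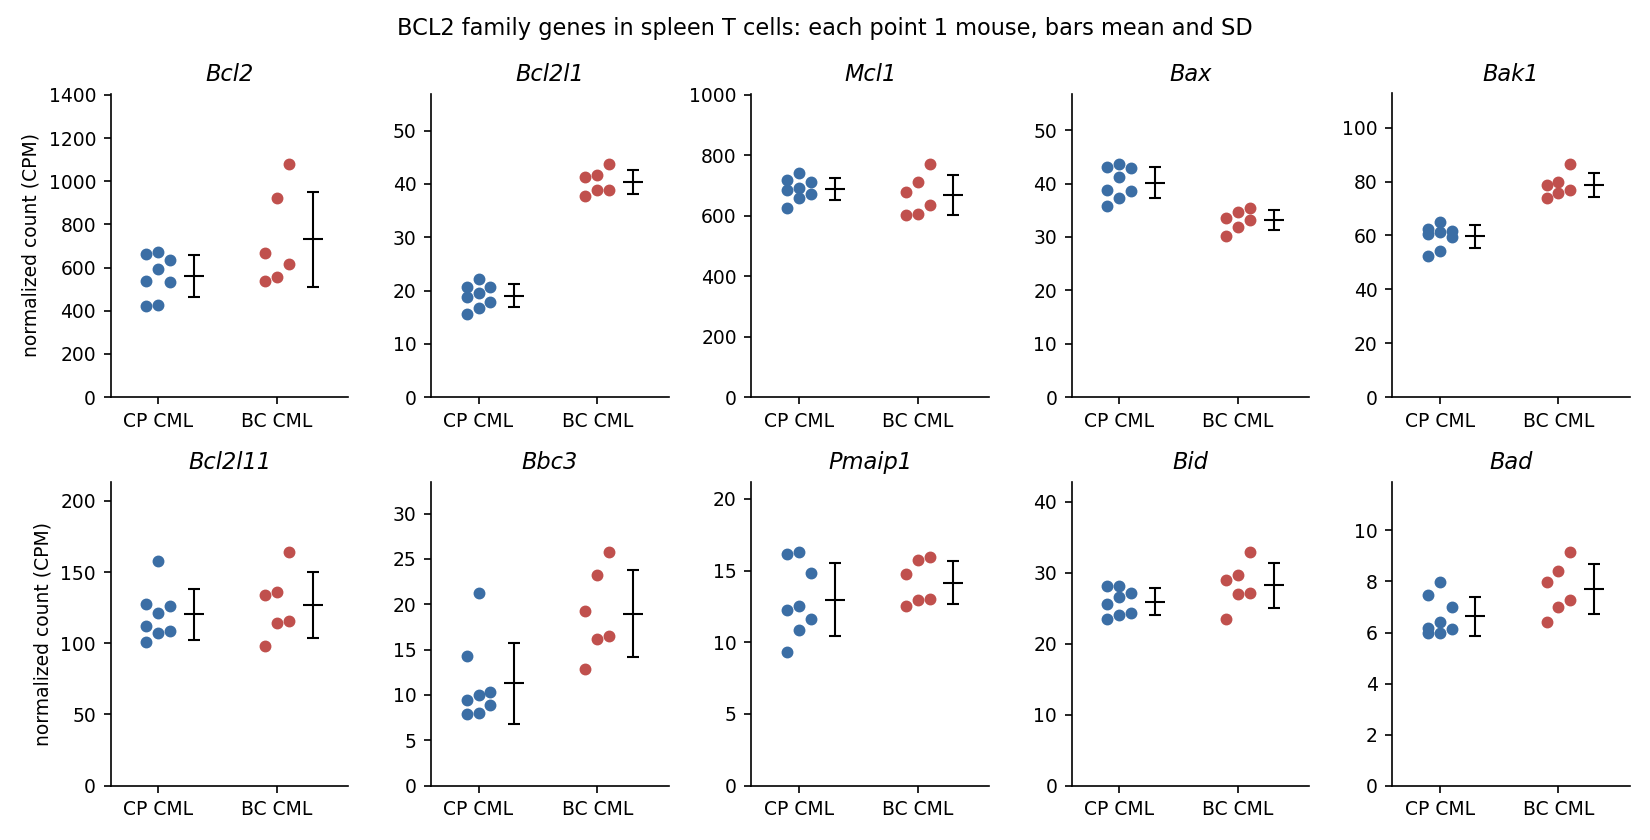
Normalized counts (CPM) of the 10 genes in each mouse, with 1 panel and its own vertical axis per gene. Points are the 8 CP CML mice (blue) and 6 BC CML mice (red), and bars give the mean and SD. The 2 colors are separate for Bcl2l1, Bax and Bak1 and overlap for the other 7 genes.

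Because the groups differ by the loss of miR-142, the mature miR-142 sequences are shown with their seed in capitals (bases 2 to 8, the part that pairs with target mRNAs), followed by the matches of 7 bases found in the longest annotated 3′UTR of Bcl2l1, Mcl1 and Bad (matched bases in capitals, 10 flanking bases on each side). Sequences are written 5′ to 3′ and were read from the GRCm38 genome with GENCODE vM21, the build of the counts (mm10).
miR-142a-3p: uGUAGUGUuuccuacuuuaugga
miR-142a-5p: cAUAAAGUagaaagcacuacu
Bcl2l1, match to miR-142a-3p: ccaggagaacCACTACAtgcaactcac
Mcl1, match to miR-142a-5p: acttcagagcACTTTATgtagttgaat
Bad, match to miR-142a-5p: gagaaacgtgCTTTATAataaagcctg

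The mature forms lie on chromosome 11 (plus strand), miR-142a-3p at positions 87756903 to 87756925 and miR-142a-5p at 87756867 to 87756887. Only the sense strand of each 3′UTR was searched, for ACACTAC or CACTACA (miR-142a-3p) and for ACTTTAT or CTTTATA (miR-142a-5p). Where both overlap, they form the 8-base matches ACACTACA and ACTTTATA. Among the 11503 tested genes with a 3′UTR, 12.1% held a match to miR-142a-3p (3.04% one of 8 bases) and 23.5% a match to miR-142a-5p (5.22% one of 8 bases). Of the 10 members, 4 held 1 match each and none held a match of 8 bases. The Bcl2l1 match lies at bases 88 to 94 of a 3′UTR of 1477 bases, on chromosome 2 (minus strand, positions 152782051 to 152782057), and 11.1% of 3′UTRs of like length (from 0.8 to 1.25 times as long, among tested genes) held a match to miR-142a-3p. The Mcl1 match, at bases 1822 to 1828 of 2353, lies on chromosome 3 (plus strand, positions 95662645 to 95662651), and 33.7% of 3′UTRs of like length had one to miR-142a-5p. In Bad it lies at bases 1005 to 1011 of 1026, on chromosome 19 (plus strand, positions 6951868 to 6951874), where 17.7% of 3′UTRs of like length had one. The last capital A of the Bad match lies opposite the first base of miR-142a-5p, a c, and does not pair with it. Pmaip1 held a match of 7 bases to miR-142a-3p, and 17.3% of 3′UTRs of like length had one. The longest 3′UTRs of the 10 members, those of Bcl2 (5086 bases) and Bcl2l11 (4218 bases), held no match, although 33.6% and 27.6% of 3′UTRs of their length had one to miR-142a-3p and 60.2% and 52.3% one to miR-142a-5p. Of the 4 members with a match 1 was called (Bcl2l1) and of the 6 without a match 3 were, beside 65.2% of all genes tested. A match is a string of letters, and whether miR-142 binds there was not measured.

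Among the anti-apoptotic genes, Bcl2l1 had the largest change of the 10 members. It maps to chromosome 2 (minus strand, positions 152758732 to 152831728) and encodes BCL-XL and its short form. The lowest, median and highest CP CML mice had 15.6, 19.2 and 22.2 CPM, and those of BC CML 37.7, 40.0 and 43.8 CPM. No CP CML mouse reached the lowest BC CML mouse. The mean went from 19.0 ± 2.18 CPM (SD, n = 8) to 40.3 ± 2.30 CPM (SD, n = 6), a log2 fold change of 1.08 (standard error 0.07, 95% confidence interval 0.94 to 1.23, edgeR adjusted p = 3.2e-10). In size this change exceeded that of 88.4% of all genes tested.

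Bcl2, the founding survival gene of the family, maps to chromosome 1 (minus strand, positions 106538176 to 106714290). The CP CML mice had 423 CPM at the lowest, 567 at the median and 673 at the highest, and the BC CML mice 538, 642 and 1082 CPM. Only 2 BC CML mice, numbers 3 (922 CPM) and 4 (1082 CPM), lay above the highest CP CML mouse, and the other 4 lay within the CP CML range. The log2 fold change of 0.38 (standard error 0.17, 95% confidence interval 0.01 to 0.75, edgeR adjusted p = 0.065) did not pass the threshold, while edgeR's likelihood ratio test gave an adjusted p of 0.041. It was 0.23 (adjusted p = 0.191) without BC CML mouse 4, and passed the threshold without mouse 5 (0.44, adjusted p = 0.041) or mouse 6 (0.45, adjusted p = 0.034), the 2 BC CML mice with the lowest Bcl2. The library of mouse 5 alone carries the letters RP after its identifier, which the sources used here do not explain. Bcl2 also varied more between mice of 1 group than most genes. Its coefficient of variation was 17.5% in CP CML and 30.3% in BC CML, above 98.2% and 99.8% of the 500 genes nearest to it in level.

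Mcl1 encodes a short-lived survival protein that T cells need continuously, and maps to chromosome 3 (plus strand, positions 95658721 to 95663178). It had 626, 689 and 740.0 CPM in the lowest, median and highest CP CML mice and 602, 657 and 772 CPM in those of BC CML. The groups overlapped over most of their range, and BC CML held both the lowest and the highest mouse. The log2 fold change was -0.04 (standard error 0.06, edgeR adjusted p = 0.52), with a 95% confidence interval from -0.16 to 0.07.

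The effector genes moved in opposite directions. Bax, which maps to chromosome 7 (minus strand, positions 45461695 to 45466898), had 35.8, 40.0 and 43.7 CPM in the lowest, median and highest CP CML mice and 30.2, 33.4 and 35.4 CPM in those of BC CML. No BC CML mouse reached the lowest CP CML mouse, though the nearest mice of each group were close (35.4 and 35.8 CPM). The mean fell from 40.2 ± 2.97 (SD, n = 8) to 33.1 ± 1.86 CPM (SD, n = 6), a log2 fold change of -0.28 (standard error 0.05, edgeR adjusted p = 0.00024). Bak1, which encodes the other pore-forming protein, maps to chromosome 17 (minus strand, positions 27019812 to 27028626). Its lowest, median and highest values were 52.5, 61.0 and 64.9 CPM in CP CML and 73.7, 77.8 and 86.7 CPM in BC CML. All BC CML mice were above all CP CML mice, and the mean rose from 59.6 ± 4.21 (SD, n = 8) to 78.6 ± 4.50 CPM (SD, n = 6), a log2 fold change of 0.40 (standard error 0.05, edgeR adjusted p = 1.7e-06).

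Of the 5 BH3-only genes, 1 passed the test. Bbc3 encodes PUMA, a BH3-only protein induced by p53 and by cytokine withdrawal, and maps to chromosome 7 (plus strand, positions 16309583 to 16318334). It had 7.87, 9.77 and 21.2 CPM in the lowest, median and highest CP CML mice and 12.8, 17.9 and 25.8 CPM in those of BC CML. The groups overlapped through CP CML mice 7 (21.2 CPM) and 3 (14.3 CPM), while the other 6 CP CML mice were below the lowest BC CML mouse. The mean rose from 11.3 ± 4.49 (SD, n = 8) to 19.0 ± 4.81 CPM (SD, n = 6), a log2 fold change of 0.75 (standard error 0.22, 95% confidence interval 0.27 to 1.23, edgeR adjusted p = 0.0083). Like Bcl2, Bbc3 was uneven within groups, with a coefficient of variation of 39.8% in CP CML (above 98.6% of the 500 genes nearest in level) and 25.4% in BC CML (above 93.6%).

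Bcl2l11, which encodes BIM, maps to chromosome 2 (plus strand, positions 128126038 to 128162547). It had 100.9, 117 and 158 CPM in the lowest, median and highest CP CML mice and 98.1, 125 and 164 CPM in those of BC CML. The ranges almost coincided, and the highest values were those of CP CML mouse 7 (158 CPM) and BC CML mouse 4 (164 CPM). CP CML mouse 7 was also the CP CML mouse with the most Bbc3, and BC CML mouse 4 the one with the most Bcl2. The log2 fold change was 0.08 (standard error 0.11, 95% confidence interval -0.16 to 0.32, edgeR adjusted p = 0.57), and it was -0.01 without BC CML mouse 4. Bcl2l11 varied between mice more than 96.0% (CP CML) and 96.4% (BC CML) of the 500 genes nearest in level.

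The other BH3-only genes, Pmaip1 (NOXA, an inhibitor of MCL1), Bid (cleaved by caspase 8 to link death receptors to mitochondria) and Bad (held inactive by phosphorylation when growth factors signal), had overlapping groups and missed the threshold. Pmaip1, on chromosome 18, ranged from 9.32 to 16.3 CPM in CP CML (median 12.4) and from 12.5 to 15.98 CPM in BC CML (median 13.9), a log2 fold change of 0.13 (95% confidence interval -0.12 to 0.37, edgeR adjusted p = 0.345). Bid, on chromosome 6 from 120893119 to 120916820, ranged from 23.5 to 28.2 CPM in CP CML (median 26.1) and from 23.5 to 32.9 CPM in BC CML (median 28.1), a log2 fold change of 0.12 (95% confidence interval -0.02 to 0.27, edgeR adjusted p = 0.128). For Bid, 3 of 6 BC CML mice were above the highest CP CML mouse and BC CML mouse 1 was the lowest of all 14, and without that mouse the gene passed the threshold (0.17, adjusted p = 0.0294). Bad, on chromosome 19 from 6941861 to 6951905, ranged from 5.96 to 8.00 CPM in CP CML (median 6.30) and from 6.43 to 9.15 CPM in BC CML (median 7.64), a log2 fold change of 0.21 (95% confidence interval 0.0014 to 0.43, edgeR adjusted p = 0.072). It passed the threshold without CP CML mouse 2 (0.26, adjusted p = 0.0333) or BC CML mouse 4 (0.26, adjusted p = 0.036). The exons of Bad overlap Gpr137 on the opposite strand over 20.5% of their length in GENCODE vM21, those of Bid overlap Bcl2l13 over 17.7%, and those of Bak1 overlap Ggnbp1 in stretches of 18.2% and 7.35%. Ggnbp1 was not among the genes tested. Those of Bcl2 overlap the antisense D630008O14Rik over 6.09%, and those of Bax overlap Gm45808 on the same strand over 12.2%, which no strand setting would separate. The strand setting of the counting is not given in the sources used here, so reads in the overlaps cannot be assigned with certainty.

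**Figure D2:**
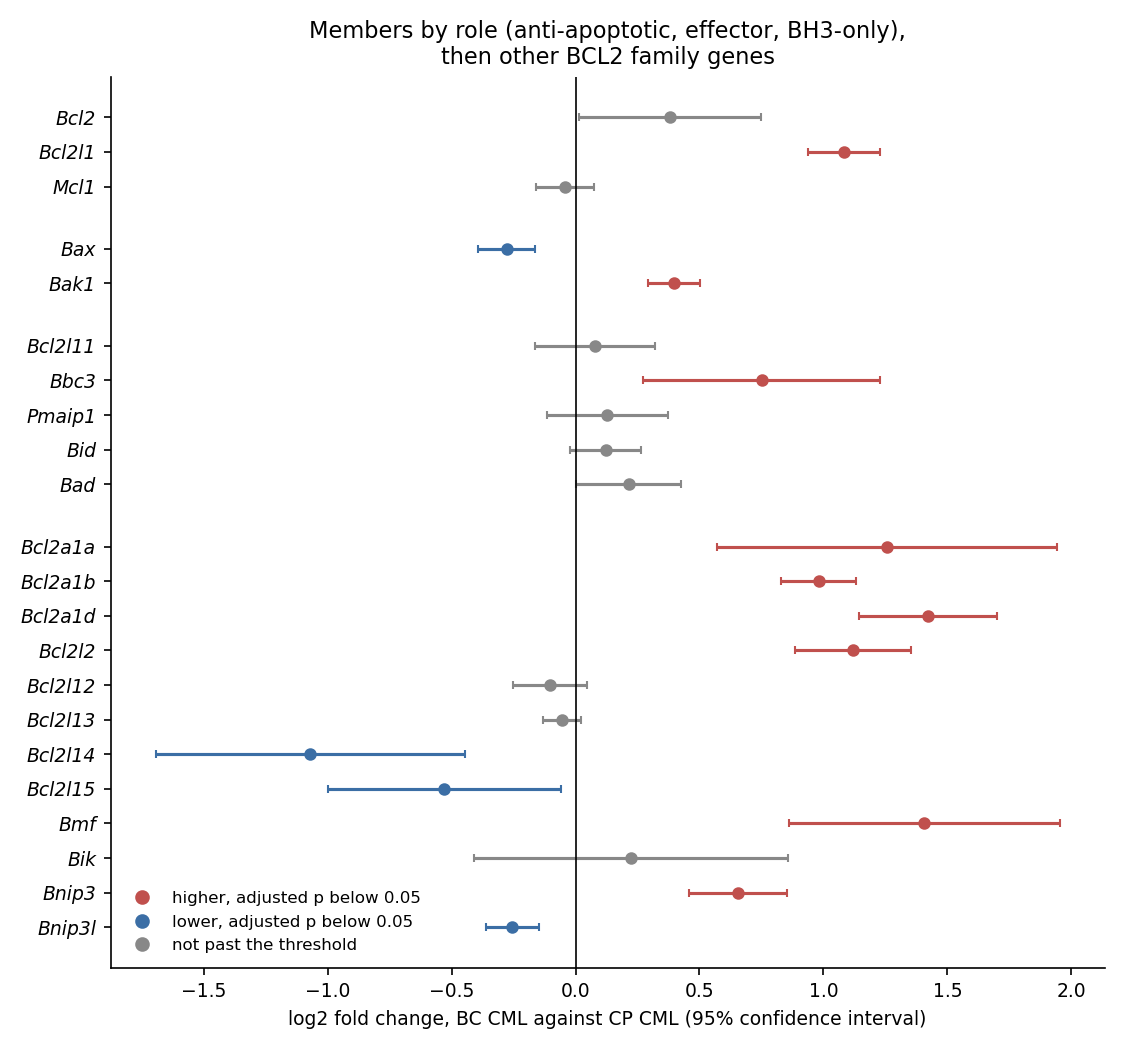
Log2 fold change of BC CML against CP CML (horizontal axis) with its 95% confidence interval for the 10 members, grouped as anti-apoptotic, effector and BH3-only genes, and for the other 12 BCL2 family genes tested. Red marks genes called higher, blue genes called lower and grey genes past no threshold. Bcl2l1 has the largest value of the members (1.08), and Bmf, Bcl2a1a, Bcl2a1d and Bcl2l2 reach beyond it among the others.

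Levels of different genes were compared per length, as CPM per kilobase of the deposited gene length. Mcl1 was the most abundant member, with 197 ± 10.3 CPM per kilobase in the 8 CP CML mice and 192 ± 19.1 in the 6 BC CML mice (mean ± SD), followed by Bcl2 with 76.4 ± 13.4 and 99.4 ± 30.1. Together with Bcl2l1 they made up 72.8% ± 1.42 of the members' summed level in CP CML and 72.2% ± 1.16 in BC CML. In CP CML the order continued with Bax (30.1), Bak1 (29.6), Bcl2l11 (15.5), Bid (13.8), Bbc3 (5.72), Pmaip1 (4.90), Bad (4.38) and Bcl2l1 (4.12 CPM per kilobase). Mice overlapped between neighbors from Bax to Bak1, from Bcl2l11 to Bid, and along the whole run from Bbc3 to Bcl2l1, so within these stretches the order is not resolved. Bcl2l1 had the lowest mean in CP CML, at 1.08% of the summed level, but the places of Bad and Bid depend on the length used. With the merged exon length of GENCODE vM21, an alternative chosen after seeing the data, Bad was lowest in CP CML (2.598 CPM per kilobase, beside 4.14 for Bcl2l1), and Bid was at 7.30 in CP CML and 7.94 in BC CML, below Bcl2l1 (8.79) by mean in BC CML. Mcl1, Bcl2, Bax, Bak1 and Bcl2l11 kept their places in both groups.

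In BC CML, Bak1 (39.0 CPM per kilobase) was above Bax (24.8) without overlap, and Bcl2l1 (8.75) stood above Pmaip1 (5.34) and Bad (5.08) in all mice while overlapping Bbc3 (9.61). Bcl2l11 (16.4), Bid (14.96) and Bbc3 overlapped from each to the next. The ratio of Bak1 to Bax per length was 0.985 ± 0.083 (SD) over the 8 CP CML mice, with a highest mouse of 1.15, and 1.57 ± 0.104 (SD) over the 6 BC CML mice, with a lowest mouse of 1.41. The 2 effectors were thus near parity in every CP CML mouse, and Bak1 exceeded Bax in every BC CML mouse. Their summed share of the members was 15.7% ± 1.21 and 15.4% ± 1.18. The BH3-only genes together held 11.6% ± 0.94 in CP CML and 12.4% ± 0.59 in BC CML. The ratio of the mean levels of Bcl2l11 and Bcl2, per length, was 0.203 in CP CML and 0.165 in BC CML (medians over mice 0.200 and 0.175, with overlap). These shares and ratios were not tested.

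**Figure D3:**
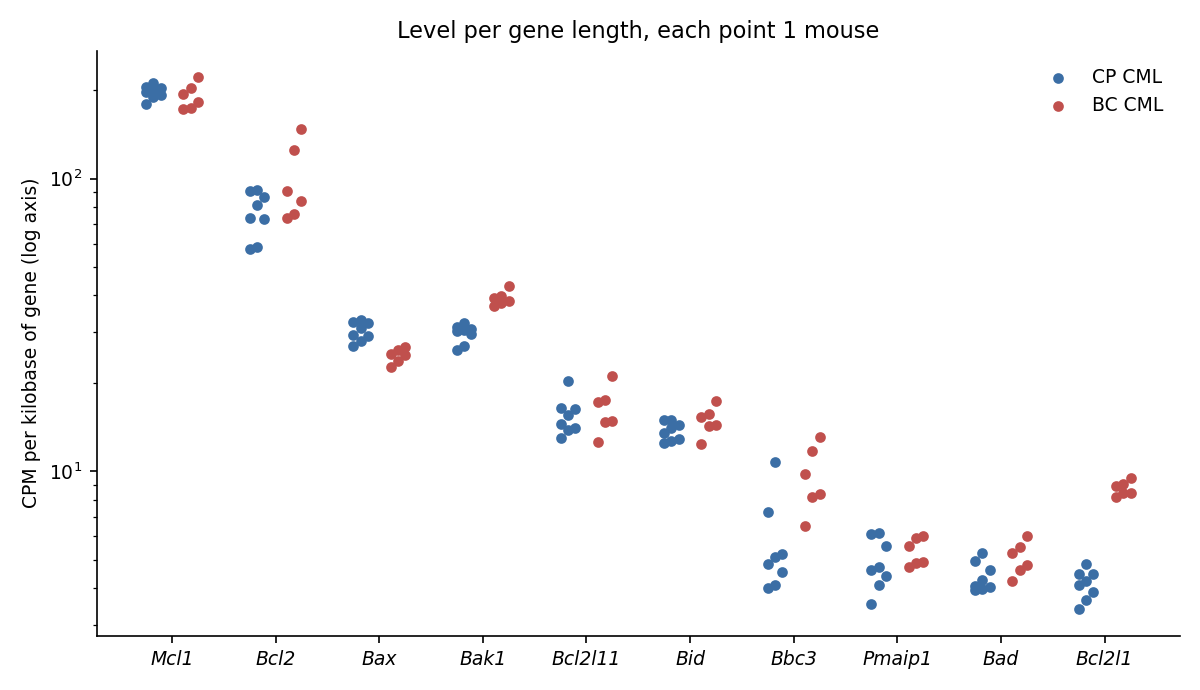
Level of each gene per gene length (CPM per kilobase, log axis), with 1 point per mouse and genes in the order of their CP CML means. Mcl1 and Bcl2 lie above all other members in both groups, and Bcl2l1, the lowest by mean in CP CML with the deposited lengths (4.12), is at 8.75 in BC CML.

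Of 15 other BCL2 family genes, 12 were tested, and 9 of these were called, 6 higher and 3 lower in BC CML. Their median log2 fold change was 0.44. Bcl2l10, Bok and Hrk had at most 1 read in any mouse and were not tested. Among survival genes, Bcl2l2, which encodes BCL-W, rose from 7.56 ± 1.19 (SD, n = 8) to 16.4 ± 2.39 CPM (SD, n = 6), a log2 fold change of 1.12 (edgeR adjusted p = 1.0e-07) without overlap. The A1 genes Bcl2a1b, Bcl2a1d and Bcl2a1a, survival genes of activated lymphocytes and myeloid cells, rose by 0.98, 1.42 and 1.26 on the log2 scale, from 18.2, 5.10 and 0.458 CPM to 35.9, 13.7 and 1.10 CPM. They are near-identical copies, so reads may have been divided between them or discarded, and their single values are uncertain. On the same strand, the exons of Bcl2a1b overlap Gm29094 over 49.1% of their length and those of Bcl2l2 overlap Gm20521 over 13.3%. Bmf, a BH3-only gene, rose from 6.94 ± 3.02 (SD, n = 8) to 18.4 ± 4.43 CPM (SD, n = 6), a log2 fold change of 1.41 (edgeR adjusted p = 0.00020), again without overlap between groups.

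Bnip3, a BH3-like gene of mitochondrial clearance that responds to low oxygen, rose by 0.65 on the log2 scale (from 4.05 to 6.39 CPM, edgeR adjusted p = 8.8e-06), while its relative Bnip3l fell by 0.26 (from 136 to 114 CPM, edgeR adjusted p = 0.00028). Bcl2l14 fell by 1.07 and Bcl2l15 by 0.53 on the log2 scale, each at a mean of under 3 CPM. The exons of Bcl2l15 overlap Gm43064 on the same strand over 21% of their length. Bcl2l12 (log2 fold change -0.10), Bcl2l13 (-0.05) and Bik (0.22) did not pass the test. Bcl2l13 is shown with its sequence because it was the family gene with a match of 8 bases to miR-142a-3p, on chromosome 6 (plus strand, positions 120890675 to 120890682) (matched bases in capitals).
Bcl2l13, match to miR-142a-3p: tactttatggACACTACActgtctagtg

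Its level was 74.3 ± 2.69 CPM (mean ± SD) over the 8 CP CML mice and 71.6 ± 3.29 CPM over the 6 BC CML mice, and the 95% confidence interval of the log2 fold change ran from -0.13 to 0.02. Bcl2l2, Bmf and Hrk held a match of 7 bases to miR-142a-5p in the longest 3′UTR, as did Bcl2l13, where 42.7%, 49.5%, 60.4% and 61.3% of 3′UTRs of like length held one. For the miR-142a-3p match of Bcl2l13 that share was 33.8%. As in Bad, the last A of the Bmf match does not pair with miR-142a-5p.

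Downstream of the family, 8 of 15 genes of the mitochondrial death pathway were called, 4 higher and 4 lower, with a median log2 fold change of 0.05. Birc2, which encodes the ubiquitin ligase cIAP1, rose by 0.92 on the log2 scale (from 131 to 248 CPM), Cycs, which encodes cytochrome c, by 0.43 and the caspase inhibitor Xiap by 0.38. The nuclease gene Endog fell by 0.52 and Birc3 (cIAP2) by 0.20 on the log2 scale. Apaf1 (log2 fold change -0.10) and Casp9 (-0.11), the core of the apoptosome, did not pass the test and were named after their values were seen.

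Of 13 tested genes of the p53 pathway, to which Bax, Bbc3 and Pmaip1 also respond, 4 were higher and 2 lower, with a median of 0.01. Cdkn1a, the p53-induced inhibitor of cyclin-dependent kinases, rose by 1.53 on the log2 scale at low levels (from 0.975 to 2.83 CPM), Sesn1 by 0.39 and Trp53inp1 by 0.37. Trp53 itself fell by 0.32 (from 158 to 127 CPM) and its inhibitor Mdm4 by 0.29. Of 16 regulators of the family, 3 were higher and 3 lower, with a median of 0.0031. Il7r, the receptor for the survival cytokine IL-7, fell by 1.00 on the log2 scale (from 1107 ± 171 to 552 ± 138 CPM, edgeR adjusted p = 3.0e-05) without overlap. The other receptor chains Il2rb and Il2rg rose by 0.88 and 0.45. Ddit3 (CHOP), a stress factor that can induce BH3-only genes, rose by 0.99, and Stat5b, which carries common gamma chain signals, and the kinase Akt2 fell by 0.47 and 0.16. Against the 65.2% of all genes called, the shares were 75% of the other family genes, 53.3% of the mitochondrial list, 46.2% of the p53 list and 37.5% of the regulators.

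The genes with the pattern most like Bcl2l1 over the 14 mice, by the root mean square difference of mean-centred log2 CPM, were Tapbpl (0.078), Pkp4 (0.106) and Laptm4a (0.114), with log2 fold changes of 1.04, 1.04 and 1.08. Those most like Bax were Reep4 (0.055), Isy1 (0.061) and Sec23b (0.066), with log2 fold changes of -0.27, -0.28 and -0.25.

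Marker mRNAs of T cell states and of other cells also differed between groups. T cell identity genes were expressed in every library (Cd3e from 363 to 434 CPM), their summed level ranging from 4611 to 5254 CPM in CP CML and from 5546 to 5915 CPM in BC CML, with 5 of 12 higher and 2 lower. Cd4 was lower in BC CML (log2 fold change -0.73). Of the CD8 chains Cd8a was higher (0.87), and Cd8b1 did not pass the test (0.07, edgeR adjusted p = 0.352). Of 10 naive T cell markers 9 were lower and 1 higher, with summed levels of 5839 to 7426 CPM against 3546 to 4829 CPM. Of 12 effector and memory markers 11 were higher and none lower, with 948 to 1183 CPM against 2087 to 2589 CPM. Proliferation genes overlapped, at 675 to 863 CPM against 611 to 1052 CPM, with 2 of 10 lower. These counts of markers stand beside 32.6% of all genes called higher and 32.7% called lower.

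Many markers on the myeloid, B cell, NK cell and erythroid lists were also called higher in BC CML, beside the 32.6% of all genes. The most abundant of them reached the level of some T cell genes there. The neutrophil gene S100a9 had 2.00 to 166 CPM in CP CML and 177 to 486 CPM in BC CML. In BC CML Cd4 had 191 to 295 CPM and Cd3e 385 to 430 CPM. Cd3g (641 to 711 CPM) and Cd8a (1071 to 1478 CPM) were above S100a9 in every BC CML mouse. Myeloid markers (13 of 15 higher) summed to 85.3 to 742 CPM in CP CML and 841 to 2208 CPM in BC CML, and B cell markers (7 of 9 higher) to 65.3 to 197 and 109 to 588 CPM, with overlapping mice. NK cell markers (5 of 5 tested higher, Klra4 at 0 in every mouse) summed to 154 to 217 and 426 to 629 CPM, and erythroid markers (3 of 6 tested higher) to 18.4 to 74.3 and 58.5 to 94.2 CPM, also with overlap. Klrd1 and Klrb1c, on the NK cell list, already had 96.3 to 139 and 38.9 to 58.2 CPM in CP CML. Whether NK cells or T cells carried these markers was not tested. The part of effector, memory, NK and erythroid cells in the members' changes was not tested. With the mean log2 CPM of the myeloid markers as a covariate, Bcl2l1 (log2 fold change 1.23, edgeR adjusted p = 9.1e-08), Bak1 (0.45, adjusted p = 0.00021) and Bax (-0.27, adjusted p = 0.019) were still called, and Bbc3 was not (0.87, adjusted p = 0.066). Of the other 12 family genes tested, which include the A1 genes, 5 were called higher and 2 lower in that fit, in which 45.9% of all genes were called. The myeloid score did not overlap between the groups (0.643 to 4.05 in CP CML and 4.17 to 5.38 in BC CML, mean log2 CPM), so this fit separates it from the genotype only in part. With the B cell markers (55.2% of all genes called) all 4 were called, and Bcl2 (0.63, adjusted p = 0.0099) and Mcl1 (-0.15, adjusted p = 0.047) also passed the threshold.

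With the naive T cell markers as a covariate, none of the 10 members passed edgeR's adjusted threshold (3 had an unadjusted p below 0.05). In that fit 12.6% of all genes passed the adjusted threshold. Bcl2l1 then had a log2 fold change of 0.57 (adjusted p = 0.070), Bax -0.41 (adjusted p = 0.161), Bak1 0.058 (adjusted p = 0.841) and Bbc3 1.90 (adjusted p = 0.1104). That score did not overlap either between the groups (8.62 to 8.93 in CP CML and 7.76 to 8.20 in BC CML, mean log2 CPM), and with it the standard error of Bcl2l1 went from 0.07 to 0.20 and that of Bbc3 from 0.22 to 0.74. The level of naive T cell markers and the genotype therefore cannot be told apart in these libraries.

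**Figure D4:**
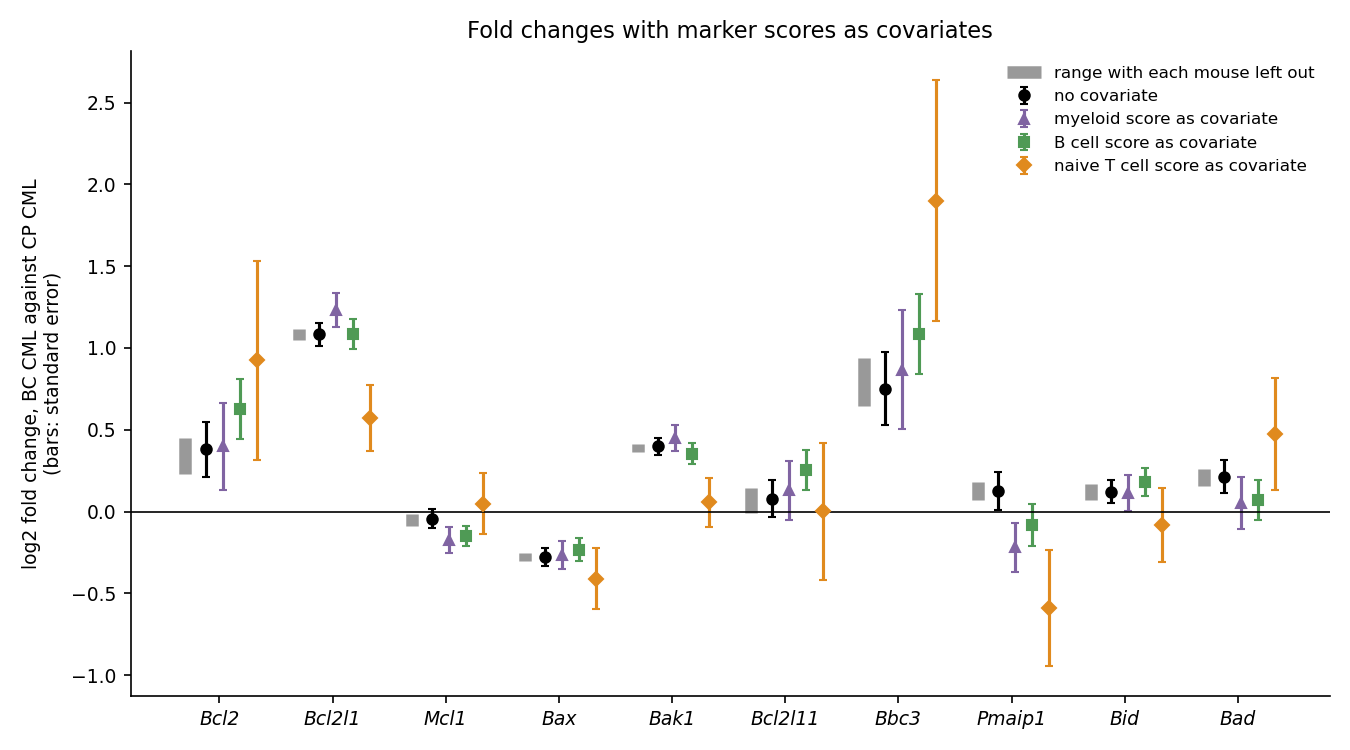
Log2 fold change of BC CML against CP CML for the 10 genes without a covariate (black) and with the mean log2 CPM of myeloid (purple), B cell (green) or naive T cell (orange) markers as a covariate. Bars are standard errors, and grey bars span the values with each of the 14 mice left out. Bcl2, Bcl2l1, Bak1, Bbc3 and Bad are above 0 and Bax below 0 in each fit drawn. With the naive T cell markers Bak1 falls to 0.058 and none of the 10 genes is called.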

How the data were processed

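The bulk RNA-seq libraries of 14 mice (8 CP CML, 6 BC CML) were used. Per the submitters' processing notes, reads were trimmed with Trimmomatic, aligned with STAR 2.6.0 to mm10 and counted with HTSeq 0.11.1, and the authors deposited the raw read counts per gene, not normalized, with each gene's position and length. The annotation and strand setting used for counting are not given in the sources used here.

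Counts were filtered with filterByExpr on group, given TMM factors and compared with the quasi-likelihood test in edgeR 4.0.16 (limma 3.58.1, R 4.3.3) on all 14 mice with no covariate, with Benjamini-Hochberg adjustment over 12248 genes. Level per length is CPM divided by the deposited length in kilobases. Log2 CPM used a prior count of 2. Alternatives were other tests (DESeq2 1.42.0 and edgeR's likelihood ratio test), other scalings (library size alone and RLE factors), other filters (none, or over 1 CPM in 6 mice), a replicate block, marker scores as covariates and each mouse left out. Only the main fit, and none of the alternatives, was tested on simulated data. That simulation had 200 changed genes, far fewer than the 7986 called here. Replicates of a group differed beyond counting noise (chi-square per degree of freedom at least 2.99), so none was counted as a library deposited again.

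The members and gene lists were chosen with earlier results of these data known. Genes were named by rule: all members and other BCL2 family genes, the 3 largest called rises and falls of each other pathway list, the 3 genes most like the member with the largest called rise and fall, Mir142 and cell type markers. Some genes that this rule names are not reported here. The 3′UTRs were the longest per gene in GENCODE vM21. Trac, Trbc1, Trbc2, Ighm, Hba-a1 and Hbb-bt were not used here.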

Additional observations from a re-analysis of the deposited data

Results flagged for a closer look

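Of 22 groups of values examined (the 10 members and the total reads, in each group of mice), 1 held a mouse far from the others, where chance gives about 1 in 20, or 1.1. BC CML mouse 2 had the lowest total of its group, 16145537 reads, and the mouse nearest to it had 18319039, so that 0.668 of the span of the 6 totals lay between them. No member's value in any mouse was set apart in this way.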

How the results depend on the processing

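Over 10 other settings, 86 of 100 log2 fold changes of members kept their direction and side of the threshold, 18 of 30 with a covariate and 68 of 70 in the other 7 settings. Bcl2 (0.38) passed the threshold with the likelihood ratio test (0.38, adjusted p = 0.041) and with the B cell markers as a covariate (0.63), and Mcl1 with the latter (-0.15). Pmaip1 reversed with the myeloid (-0.22) and B cell (-0.081) markers. With the myeloid markers Bbc3 lost the call (0.87). In that fit 5 of the mitochondrial pathway genes were called (4 higher, 1 lower) instead of 8 (4 higher, 4 lower). With the naive T cell markers, 1548 genes (12.6%) were called instead of 7986 (65.2%), with 0 members, 0 other family genes and 0 p53 pathway genes by edgeR (3, 3 and 4 at an unadjusted p below 0.05), 5 mitochondrial pathway genes and 2 regulators. Bcl2l1 (0.57), Bax (-0.41), Bak1 (0.058) and Bbc3 (1.90) then lost the call, and Mcl1 (0.047), Pmaip1 (-0.59) and Bid (-0.082) reversed. The cause was not tested. DESeq2, RLE factors, library size alone and the other filters changed no call or direction of a member.

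With each mouse left out, 4 or 5 members and 62.8% to 65.2% of all genes were called. The mitochondrial pathway list then had 7 to 9 genes called and the other family list 8 or 9. Without BC CML mouse 1 or mouse 3 the mitochondrial list had 5 higher and 2 lower, against 4 and 4 with all mice. Bcl2 ranged from 0.23 to 0.45, Bid from 0.071 to 0.17, Bad from 0.16 to 0.26 and Bcl2l11 from -0.011 to 0.14 (below 0 without BC CML mouse 4). Mice with the same replicate number did not deviate together (mean correlation of deviations -0.024, 2 of 6 pairs over 0.1). The replicate block could use only the 12 mice numbered 1 to 6, and with it 5 members were called, Bcl2 being added (0.43, adjusted p = 0.016), and 59.8% of all genes. The other family genes then had 6 higher and 1 lower (3 lower in the main fit), and the mitochondrial list 4 higher and 2 lower. Without the block, on the same 12 mice (chosen after seeing the data), 4 members were called, with Bcl2 at 0.46 (adjusted p = 0.054), and 62.7% of all genes. The members with the fewest reads, Bad (98 to 178 reads), Bbc3 and Pmaip1, have the least precise values per mouse.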
